A study of Mus musculus with 16 samples.

Results

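The genes described here are 7 markers of the olfactory bulb and of the sensory axons that enter it, Omp, Cdhr1, Doc2g, Eomes, Tbx21, Th and Frmd7, taken from the 55487 genes of a count table by their symbols. They were chosen by their measured variation, because olfactory genes stood among those that varied most over these 16 brains, so their spread over mice is given as a description without a test. All 7 passed the filter on low counts, as did 18609 genes in all. The table holds poly(A) RNA-seq read counts from bulk brain of 16 female C57BL/6J mice in 4 groups of 4. Each mouse carried the human cholesteryl ester transfer protein transgene (CETPtg) and ate a diet with 1% cholesterol. The APPtg/CETPtg mice carried in addition a mutant human amyloid precursor protein driven by the Thy1 promoter in neurons. For 11 weeks the mice received either evacetrapib, an inhibitor of CETP, at 30 mg/kg per day, or the vehicle. The study speaks of RNA from total brain and describes a cerebrum that was divided into 4 pieces and frozen. Whether the bulb was kept with it is not given in the sources used here. Mice are named as in the labels, S1 to S4 for CETPtg on vehicle, A to D for CETPtg on evacetrapib, S5 to S8 for APPtg/CETPtg on vehicle and E to H for APPtg/CETPtg on evacetrapib.

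The olfactory bulb sits at the front of the brain and is the first relay of the sense of smell. Axons of olfactory sensory neurons, whose cell bodies lie in the nose, end in its glomeruli on the dendrites of mitral and tufted cells, the glutamatergic neurons that project to the olfactory cortex. Periglomerular and granule cells, the local inhibitory neurons, shape this signal and are replaced throughout life by neuroblasts from the subventricular zone. Omp (olfactory marker protein) is the classical gene of mature sensory neurons. Cdhr1 (a protocadherin-like adhesion protein), Doc2g (a member of the double C2 domain family), and the T-box transcription factors Eomes (Tbr2) and Tbx21 (T-bet) mark mitral and tufted cells in the bulb. Th, tyrosine hydroxylase, makes the precursor of dopamine in a class of periglomerular cells as well as in the midbrain, and Frmd7 encodes a FERM domain protein of neurons that is known for its role in eye movement.

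The genes lie on 6 chromosomes (GRCm38). Omp (ENSMUSG00000074006) is a single-exon gene at chr7:98143359-98145502 on the minus strand, inside the longer gene Capn5 on the same strand but with no exonic base shared. Cdhr1 (ENSMUSG00000021803) lies at chr14:37077857-37098347 on the minus strand, Doc2g (ENSMUSG00000024871) at chr19:4003313-4007005 on the plus strand and Eomes (ENSMUSG00000032446) at chr9:118478212-118486132 on the plus strand. Tbx21 (ENSMUSG00000001444) lies at chr11:97098071-97115331, Th (ENSMUSG00000000214) at chr7:142892752-142931128 and Frmd7 (ENSMUSG00000036131) at chrX:50895180-50942710, all on the minus strand. Doc2g shares 1926 of its 3035 exonic bases with the annotated gene Gm49405 on the same strand. How reads in the shared bases were assigned is not given, so its counts are uncertain. Gm49405 ranged from 0.816 to 2.31 CPM (read counts scaled to library size) over the mice. Eomes shares 118 exonic bases with the antisense gene Gm33460, which did not exceed 0.270 CPM. Capn5 ranged from 53.9 to 68.9 CPM and its correlation with the 7 genes over the mice was negative (r = -0.35).

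The promoters of the 7 genes were searched for motifs as a description, and whether the genes share regulation was not tested. RefSeq promoter windows of 300 bases (GRCm38.p6) were found for 6 of the 7 genes, all but Omp. The windows of Cdhr1, the most abundant of the mitral cell genes, of Eomes, the gene with the widest range, and of Th, the interneuron gene, are shown 5′ to 3′ on the gene's strand, with E-box matches (CANNTG) in capitals.
Cdhr1 (chr14:37098298-37098597, minus strand): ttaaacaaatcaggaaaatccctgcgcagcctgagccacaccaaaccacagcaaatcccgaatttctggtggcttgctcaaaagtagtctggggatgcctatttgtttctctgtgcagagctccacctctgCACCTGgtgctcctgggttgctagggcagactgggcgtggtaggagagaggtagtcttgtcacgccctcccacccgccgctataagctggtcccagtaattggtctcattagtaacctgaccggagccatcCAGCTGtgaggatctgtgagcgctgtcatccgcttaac
Eomes (chr9:118477939-118478238, plus strand): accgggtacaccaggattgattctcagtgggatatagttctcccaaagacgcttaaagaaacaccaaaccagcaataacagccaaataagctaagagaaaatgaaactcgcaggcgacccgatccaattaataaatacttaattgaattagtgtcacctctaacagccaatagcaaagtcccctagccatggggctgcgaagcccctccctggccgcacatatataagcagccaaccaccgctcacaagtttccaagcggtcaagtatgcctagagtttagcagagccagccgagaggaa
Th (chr7:142899946-142900245, minus strand): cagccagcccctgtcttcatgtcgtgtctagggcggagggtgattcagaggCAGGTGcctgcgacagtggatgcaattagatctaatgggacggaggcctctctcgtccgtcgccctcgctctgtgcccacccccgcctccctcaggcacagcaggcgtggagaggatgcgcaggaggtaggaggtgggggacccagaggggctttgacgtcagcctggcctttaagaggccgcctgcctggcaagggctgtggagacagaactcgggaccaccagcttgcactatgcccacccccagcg
The E-box was found in 5 of the 6 windows, with 2 matches in Cdhr1, 3 in Doc2g, 4 in Frmd7, 2 in Tbx21, 1 in Th and none in Eomes. It is common, being held by 72.3% of the 32851 promoters of the table. On both strands, none of the 6 windows held the EBF (Olf-1) motif (0.904% of all promoters), the homeodomain motif TAATTA (5.29%), the T-box motif AGGTGTGA (1.28%), its short form GGTGTGA, which overlaps it (3.98%), or the TATA box TATAAA (13.6%). These are matches of letters and do not show binding.

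Library totals ran from 21391335 to 55453789 counts, 28626139 to 37709734 in CETPtg vehicle, 33684250 to 46800787 in CETPtg evacetrapib, 21866883 to 55453789 in APPtg/CETPtg vehicle and 21391335 to 25854334 in APPtg/CETPtg evacetrapib. As a check of the genotype, Thy1, whose promoter drives the transgene, was higher in all 8 APPtg/CETPtg mice than in all 8 CETPtg mice (log2 fold change 0.78, SE 0.15, edgeR adjusted p = 0.00178). The mouse App gene, of the same name as the human gene in the transgene, did not separate the genotypes (0.05, SE 0.05, edgeR adjusted p = 0.574). The index plate columns differed between the genotypes and its rows between the treatments, so plate position and group cannot be told apart. Some brains also stood apart in genes of other regions. Prl, the pituitary hormone prolactin, reached 515 CPM in mouse E with a median of 0.0336 CPM, Oxt, the hypothalamic hormone oxytocin, reached 49.9 CPM in S3, and Ttr, the choroid plexus transthyretin, reached 427 CPM in S8.

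Omp, the sensory neuron gene, was measured in CPM at 1.83, 13.0, 10.5 and 11.6 in the CETPtg vehicle mice S1 to S4. In the CETPtg evacetrapib mice A to D it was 1.94, 5.64, 1.86 and 14.2 CPM. It was 0.454, 17.6, 4.26 and 0.467 CPM in the APPtg/CETPtg vehicle mice S5 to S8, and 16.9, 1.22, 19.9 and 11.6 CPM in the APPtg/CETPtg evacetrapib mice E to H. Every group held both a mouse below 2 CPM and a mouse above 12 CPM, and the ranges of all 4 groups overlapped. The highest mouse, G, had 43.9 times the level of the lowest, S5 (95% counting interval 23.6 to 92.2, from 432 and 10 counts). These and later counting intervals cover counting error only, since reads are not independent molecules.

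Cdhr1 was the most abundant of the mitral and tufted cell genes. Its CPM were 40.2, 79.9, 76.0 and 82.5 in S1 to S4, and 30.3, 32.1, 22.3 and 84.9 in A to D. They were 11.3, 90.8, 34.3 and 15.0 in S5 to S8, and 85.7, 21.4, 96.3 and 54.5 in E to H. Mouse D stood above the other 3 evacetrapib-treated CETPtg mice, which were all below every CETPtg vehicle mouse. The APPtg/CETPtg groups spanned nearly the whole range, with the highest mouse 8.53 times the lowest (95% counting interval 7.48 to 9.77).

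Eomes, the T-box factor of projection neurons, had the widest range of the 7 genes. Its CPM were 6.67, 14.8, 13.7 and 15.6 in S1 to S4, and 5.47, 4.59, 3.80 and 15.0 in A to D. They were 0.272, 19.6, 5.82 and 1.17 in S5 to S8, and 19.4, 1.75, 19.1 and 7.98 in E to H. S6 had 71.9 times the level of S5 (95% counting interval 32.7 to 197), and these 2 mice belonged to the same group. Only 6 Eomes counts were found in S5, against 434 in S6. Tbx21, the second T-box factor, had the lowest level and ranged from 2 counts in S5 to 158 counts in E, 0.0907 and 5.96 CPM, a ratio of 65.7 with a wide counting interval of 17.9 to 548. Doc2g ranged from 2.50 CPM in S5 to 32.8 CPM in E, a ratio of 13.1.

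Th, the dopaminergic interneuron gene, had the narrowest range. Its CPM were 15.0, 28.9, 31.5 and 32.2 in S1 to S4, and 10.9, 12.5, 8.52 and 33.6 in A to D. They were 6.49, 40.5, 14.5 and 6.14 in S5 to S8, and 37.5, 8.16, 37.9 and 20.9 in E to H. The highest mouse had 6.59 times the level of the lowest, and the order of the mice was close to that of Cdhr1. Frmd7 ranged from 1.09 CPM in S5 to 19.8 CPM in E, a ratio of 18.2, with D at 15.0 CPM far above A, B and C at 3.13 to 4.94 CPM.

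**Figure D1:**
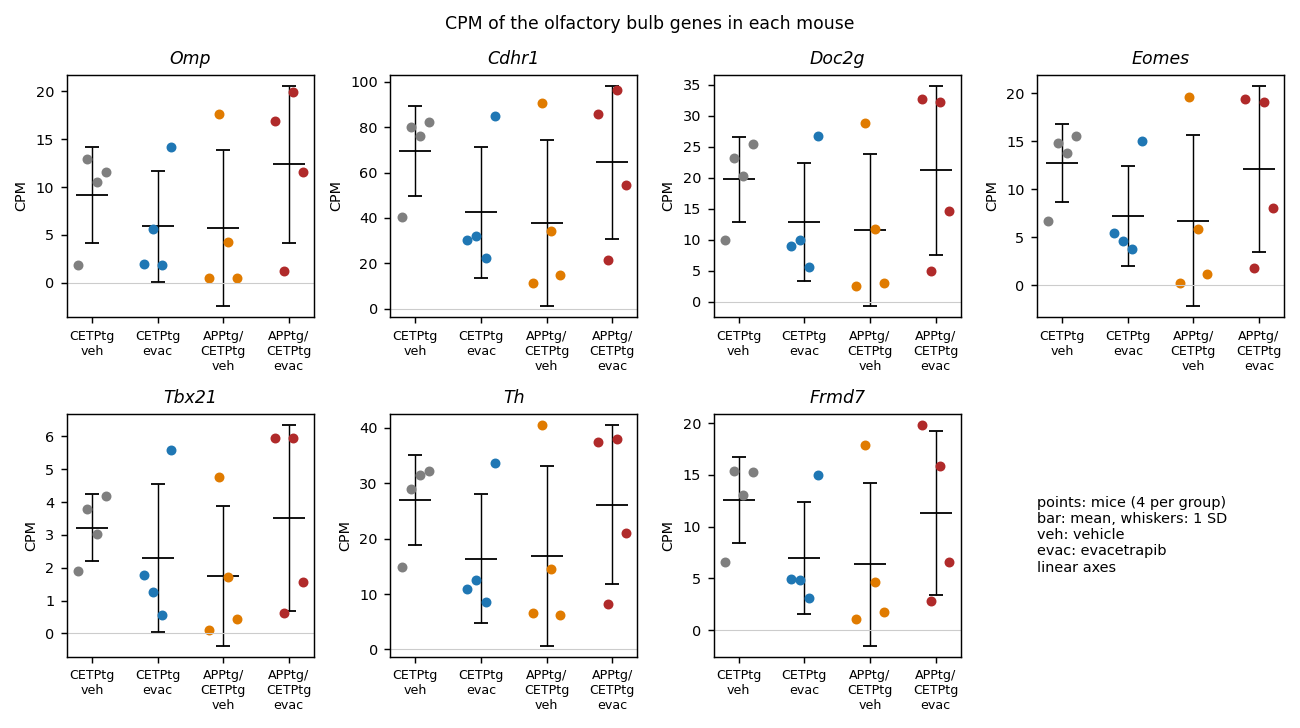
CPM of each gene (vertical axes, linear) in each mouse (points), by group, with the group mean and 1 SD (bar and whiskers, 4 mice per group). In each panel the points of the 4 groups overlap, and mouse D (for Cdhr1, 84.9 CPM) stands above the other 3 mice of its group.

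Per kilobase of annotated exon, which allows levels to be compared between genes, the median over the 16 mice was highest for Cdhr1 at 10.9 CPM per kb. Th followed at 7.59, Doc2g at 4.36, Omp at 3.76, Frmd7 at 3.08, Eomes at 1.76 and Tbx21 at 0.739 CPM per kb. The place of Doc2g in this order is uncertain, since 1926 of its 3035 exonic bases are shared with Gm49405 and may not have been counted. The ranges over mice of neighbouring genes in this order overlapped, for example 2.61 to 22.2 CPM per kb for Cdhr1 and 2.60 to 17.1 for Th. The genes were measured in the same mice and moved together, so this overlap does not bear on their order within a mouse. The SD of log2 CPM over mice was 1.82 for Omp, 1.66 for Eomes, 1.52 for Tbx21, 1.28 for Frmd7, 1.20 for Doc2g, 1.01 for Cdhr1 and 0.973 for Th, against a median of 0.156 over all genes tested. All 7 ranked among the 100 genes with the largest SD, from rank 6 for Omp to rank 89 for Th, which is the property that brought them to notice.

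Most of this spread lay within the groups. The 4 group means held between 19.8% (Omp) and 27.2% (Cdhr1 and Frmd7) of the variance of log2 CPM, and the median over all genes tested was 29.1%. The group means of Cdhr1 were 69.6 ± 19.8, 42.4 ± 28.7, 37.8 ± 36.7 and 64.5 ± 33.8 CPM (SD, n = 4 mice each) in CETPtg vehicle, CETPtg evacetrapib, APPtg/CETPtg vehicle and APPtg/CETPtg evacetrapib. Those of Omp were 9.21 ± 5.02, 5.91 ± 5.81, 5.70 ± 8.15 and 12.4 ± 8.22 CPM, and those of Th were 26.9 ± 8.09, 16.4 ± 11.6, 16.9 ± 16.2 and 26.1 ± 14.3 CPM. For each of these 3 genes the means of both middle groups were below those of the outer groups, by less than the SD of the more variable groups. In bulk tissue, fewer cells of a type and less RNA per cell cannot be told apart.

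The 7 genes ordered the mice alike. Over the 16 mice the Pearson correlation of log2 CPM ranged from 0.906 (Omp with Tbx21) to 0.990 over the 21 pairs of genes, and from 0.890 to 0.992 after each group's mean had been taken off. Each value describes libraries that are shared by both genes of a pair, so no p is given. The mean z-score of the 7 genes was used as a profile of each mouse. It was lowest in S5 at -2.01, followed by S8 at -1.53, F at -1.05 and C at -0.872. It was highest in E and G at 1.07 each, S6 at 1.03 and D at 0.902. S5 and S8 took the bottom 2 ranks for all 7 genes, and E and G ranked between 1 and 3 for all 7. S2, S3, S4, D, S6, E and G were among the 8 highest mice for every gene, and S3, the lowest of them at 0.670, was followed by H at 0.209 and S1 at -0.193. The lowest 2 mice, S5 and S8, had library totals of 21866883 and 55453789 counts, and the highest 3, G, E and S6, had 21391335, 25854334 and 22587182. The part of depth in the profile was not tested.

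**Figure D2:**
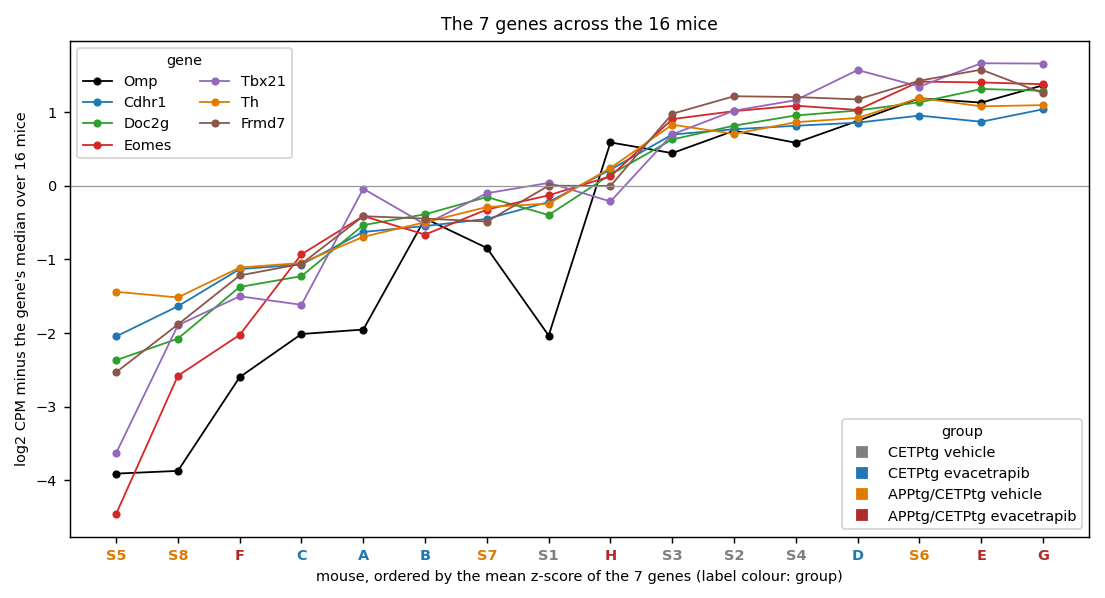
The log2 CPM of each gene minus that gene's median (vertical axis, log2) for the 16 mice (horizontal axis, ordered by the mean z-score, label colour by group). The lines run together from S5 at the left to G at the right. Omp falls below the others in several mice, among them S1, A, S8, F and C. Mice of each group are scattered along the axis, CETPtg vehicle (S1 to S4) least.

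The genes did not change by the same factor. Within a mouse, the ratio of 2 genes' counts does not depend on library size, and Cdhr1 was taken as the reference because of its high counts. Th kept the steadiest ratio, between 36.0 counts (A) and 57.4 counts (S5) per 100 counts of Cdhr1. Doc2g had 20.4 (S8) to 38.3 (E) and Frmd7 9.64 (S5) to 23.1 (E) counts per 100 of Cdhr1. Eomes ran from 2.41 (S5) to 22.6 (E) and Tbx21 from 0.803 (S5) to 6.96 (E). S5, S8 and F, the 3 mice with the least Cdhr1, had the 3 lowest ratios of Eomes, while their ratio of Th was at 38.2 or above. Lines fitted over the 16 mice gave the level at an Eomes of 0, which was 11.3 ± 2.36 CPM (SE) for Cdhr1, 23.8% of its median, and 4.07 ± 0.814 CPM for Th, 22.7% of its median. For Frmd7, Omp and Tbx21 that level was 0.354 ± 0.444, -0.784 ± 0.957 and -0.0838 ± 0.254 CPM, each within 1 SE of 0, and for Doc2g it was 1.57 ± 0.697 CPM.

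Omp had the lowest correlation of the 7 with their shared profile (r = 0.967, the others at 0.976 or above), and its ratio to Cdhr1 differed between mice of like Cdhr1. It had between 3.11 counts per 100 of Cdhr1 in S8 (95% counting interval 2.02 to 4.58) and 21.3 in H (18.5 to 24.4). A and B had nearly the same Cdhr1 level, 30.3 and 32.1 CPM, but 6.40 (5.10 to 7.95) and 17.6 (15.0 to 20.6) Omp counts per 100 of Cdhr1. S1 had more Cdhr1 than either and only 4.55 (3.46 to 5.89). S100a5, a calcium-binding protein of sensory neurons and the gene most like Omp (r = 0.974), was at 1.24 CPM in A, 1.98 CPM in B and 0.841 CPM in S1. S100a5 was picked by its likeness to Omp over these same mice. Its order in the 3 mice, with S1 lowest and B highest, is therefore no separate support for that of Omp. The counting intervals of Omp in S1 and A overlapped. Counting intervals describe the libraries and not the groups.

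**Figure D3:**
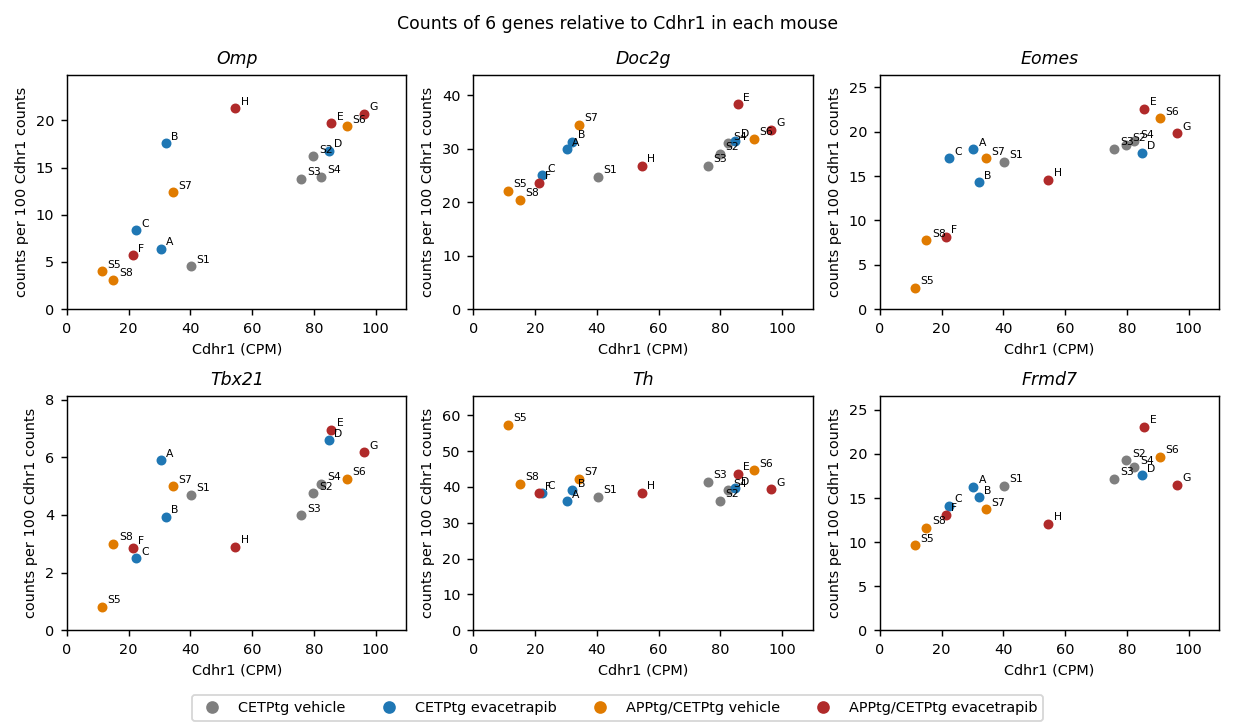
Counts of 6 genes per 100 Cdhr1 counts (vertical axes, linear from 0) against the CPM of Cdhr1 (horizontal axes), 1 labelled point per mouse, coloured by group. Th lies flat at 36.0 to 57.4, Eomes drops to 2.41 in S5, and Omp is scattered, with B and H high and S1 and A low for their Cdhr1.

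None of the 7 genes passed the test between evacetrapib and vehicle over both genotypes (edgeR quasi-likelihood test with Benjamini-Hochberg adjustment over all genes tested). The log2 fold changes lay between -0.05 (Th) and 0.24 (Tbx21), with SE of 0.407 to 0.649 and edgeR adjusted p of 0.953 to 0.999. An unadjusted p under 0.05 was found for 0 of the 7, beside 7.91% of all genes (1472). For Cdhr1 the difference was 0.02 with a 95% interval of -0.85 to 0.88 on the log2 scale, and for Omp 0.24 (-1.11 to 1.60) on the same scale. In that comparison 0.0107% of all genes (2 genes) were called, by the thresholds of adjusted p (0.05) and of a change of 5% or more. The median SE over all genes was 0.0679, well below that of every one of the 7. Each p-value weighs a fitted difference against the spread between these mice.

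Between the genotypes over both treatments, 0 of the 7 genes were called, whereas 17.7% of all genes were. The log2 differences, APPtg/CETPtg minus CETPtg, were 0.18 for Omp, -0.14 for Cdhr1, -0.04 for Doc2g, -0.11 for Eomes, -0.14 for Tbx21, -0.02 for Th and -0.17 for Frmd7, with edgeR adjusted p of 0.860 to 0.987. Their SE of 0.407 to 0.650 were again many times the median of 0.0679 over all genes. S5 and F were left out after their values were seen. Each was the lowest mouse of its APPtg/CETPtg group for every gene but Th in the vehicle group. Without them the differences of all 6 negative genes turned positive, from 0.17 (Cdhr1) to 0.30 (Doc2g). Omp was at 0.58, with none of the 7 called (edgeR adjusted p of at least 0.591). Only low mice of the APPtg/CETPtg genotype were taken out, so this upward shift was fixed by the choice and is a description only.

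Within the genotypes the fitted differences had opposite signs, but none of them passed the test. In CETPtg mice all 7 genes had lower fitted levels under evacetrapib, from -0.49 (Tbx21) to -0.86 (Frmd7) in log2 fold change, with edgeR adjusted p of 0.873 to 0.938. In that comparison 0% of all genes were called, and the Wald test of DESeq2 also called 0. An unadjusted p under 0.05 in edgeR was found for 1079 genes (5.80%), none of the 7 among them. In APPtg/CETPtg mice all 7 had higher fitted levels under evacetrapib, from 0.68 (Th) to 1.21 (Omp), with edgeR adjusted p of 0.701 to 0.755, and 0.0430% of all genes were called. The difference between these effects was 1.40 (Th) to 1.87 (Omp) on the log2 scale. Its smallest unadjusted p was 0.0592 in edgeR, for Cdhr1 (difference 1.51, 95% interval -0.07 to 3.09), with edgeR adjusted p of 0.727 to 0.781. Of all genes, 0% were called for that difference by edgeR and 1271 (6.83%) had an unadjusted p under 0.05, while the Wald test of DESeq2 called 2. Since the 7 genes move together from mouse to mouse, their shared sign counts as a single pattern and not as 7.

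Under vehicle, the 7 genes had lower fitted levels in APPtg/CETPtg than in CETPtg mice, from -0.72 (Th) to -1.06 (Frmd7), with edgeR adjusted p of 0.308 to 0.630, and 10.4% of all genes were called. This comparison rested on mouse S6, the highest APPtg/CETPtg vehicle mouse for every one of the 7 genes. Taking out the highest mouse of the lower group fixed a more negative difference in advance. The values without S6 are therefore a description only, and since the genes move together they are a single pattern. Without S6, 4 of the 7 were called, Cdhr1 at -1.80, Eomes at -2.44, Frmd7 at -2.36 and Th at -1.61, with edgeR adjusted p between 0.0250 and 0.0493, in a fit that called 8.75% of all genes (1628) between these groups. Under evacetrapib all 7 had higher fitted levels in APPtg/CETPtg mice, from 0.61 (Cdhr1) to 1.08 (Omp), with edgeR adjusted p of 0.531 to 0.691, beside 2.99% of all genes called. The comparisons within genotypes and within treatments share groups of mice, so their values are given side by side and are not independent.

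**Figure D4:**
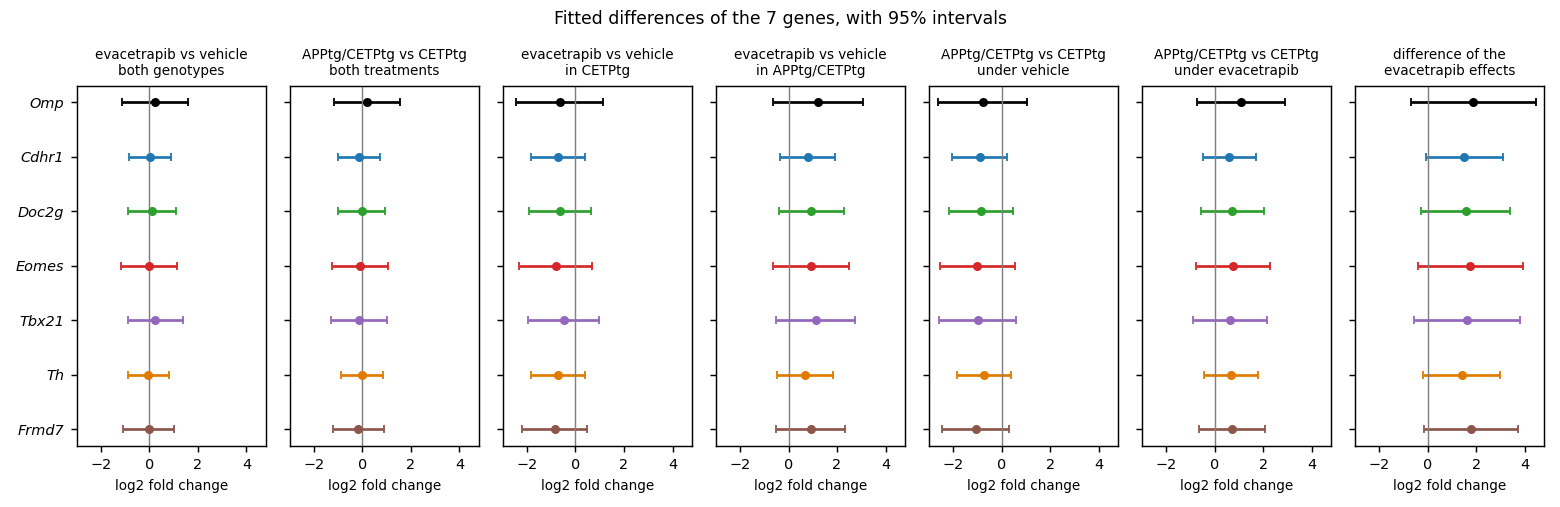
Fitted log2 fold change (horizontal axes) with its 95% interval for each gene, 1 panel for each of 7 comparisons, the last being the difference between the evacetrapib effects in APPtg/CETPtg and in CETPtg mice. Every interval includes 0, and the 7 genes lie on the same side of 0 in the last 5 panels, from -1.06 (Frmd7, genotypes under vehicle) to 1.87 (Omp, difference of the effects).

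The ranges of CPM gave the same counts. In 0 of the 7 genes did evacetrapib and vehicle mice not overlap over both genotypes (0.0537% of all genes did not overlap), nor did any of the 7 separate the genotypes over both treatments (3.03%). None separated the treatments within CETPtg (3.92%) or within APPtg/CETPtg (4.29%), nor the genotypes under vehicle (17.0%) or under evacetrapib (10.8%). In 2 of these comparisons the overlap rested on a single mouse, D or S6. Each was the highest mouse of its group for every gene, so taking it out lowered that group's range by choice. The genes move together, so each separation below is a single pattern and a description only. Without D, Cdhr1, Eomes, Tbx21, Th and Frmd7 did not overlap between the treatments in CETPtg mice, as did 9.29% of all genes, and without S6 the same 5 genes did not overlap between the genotypes under vehicle, as did 23.5% of all genes.

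The label of the 7 genes as bulb markers was compared with other genes by their correlation with the profile over the 16 mice. Of all genes tested, 291 (1.56%) had an r of at least 0.8, 284 of them besides the 7, while 17 genes (0.0914%) had an r of -0.8 or less and the median was -0.03. Among bulb interneuron markers other than Th and Frmd7, 11 of 16 reached 0.8 (median 0.913). They included Sp8 (0.991), a transcription factor of periglomerular cells, Calb2 (0.986), the calcium-binding protein calretinin, Dlx1 (0.965), Tshz1 (0.966) and Scgn (0.943), which encodes secretagogin. Prokr2 (0.797), Etv1 (0.602), Dlx6 (0.429), Tpbg (0.162) and Vax1 (-0.07) did not reach 0.8. Sp8 ranged from 2.72 CPM in S5 to 22.1 CPM in E and Calb2 from 14.5 CPM in S5 to 102 CPM in G. Among mitral and tufted cell markers 4 of 8 reached 0.8 (median 0.851), namely Shisa3 (0.987), Spp1 (0.930), Ntng1 (0.920) and Reln (0.913), which encodes the extracellular protein reelin. Lhx1 and Lhx5, homeobox genes of these cells, did not, at 0.19 and 0.34, and both were highest in S3, the mouse with the highest Oxt.

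The sensory neuron list divided. Of its 16 tested genes other than Omp, S100a5 (0.981) and Stoml3 (0.888), a stomatin-like protein of sensory cilia, reached 0.8. S100a5 was found at 0 counts in S5, which allows up to 3, and at 8.57 CPM in G. The transduction genes Gnal (-0.50), Adcy3 (0.03), Cnga4 (-0.34), Cngb1 (0.036) and Ano2 (-0.40) did not reach 0.8. Gnal was at 303 to 403 CPM in every brain, far above Omp. Cnga4 had 15 to 73 counts per mouse and Cngb1 had 3 to 87, highest in S3. Cnga2, another transduction gene, was at 0.574, with 6 to 23 counts per mouse. Which cells of the bulk brain gave the reads of these transduction genes was not tested. Their r values therefore do not bear on the sensory axons or on Omp. Few odorant receptor genes passed the filter. Of 1410 receptor genes listed, 343 had a count in any mouse and 9 passed. Olfr287 (r with the profile 0.34), Olfr1393 (-0.23), Olfr316 (-0.43) and Olfr78 (-0.41) gave 60.3% of the receptor counts. The summed receptor level had an r of 0.43 with the profile on the log2 scale. It ran from 13.5 CPM in F to 18.3 CPM in E, a 1.36-fold range against 43.9-fold for Omp. It differed by 0.224 CPM between evacetrapib and vehicle mice and by -0.0531 CPM between APPtg/CETPtg and CETPtg mice (exact permutation tests, two-sided, n = 8 per side, p = 0.731 and 0.935, both adjusted p = 0.935, smallest p possible 0.000408). The first difference changed sign without mouse E (-0.120) and the second without TMM scaling (0.117) and without S2 (0.139), S4 (0.0790), S7 (0.0934), S8 (0.0326) or F (0.273), each taken out alone.

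Among markers of olfactory ensheathing cells, the glia that wrap the sensory axons, 2 of 6 reached 0.8, Fabp7 (0.945) and Prss56 (0.826). Fabp7, a fatty acid-binding protein also made by radial glia and astrocytes, ran from 5.63 CPM in S5 to 44.8 CPM in G. Of the neurogenic precursor list, which bears on Eomes because intermediate progenitors express it, 2 of 6 reached 0.8, Dcx (0.887), the doublecortin of migrating neuroblasts, and Igfbpl1 (0.830). Neurod1 (-0.16) did not. The summed level of that list ran over 69.5 to 83.2 CPM in CETPtg vehicle, 60.7 to 84.1 in CETPtg evacetrapib, 51.6 to 73.4 in APPtg/CETPtg vehicle and 53.2 to 81.8 in APPtg/CETPtg evacetrapib.

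Midbrain dopamine neurons and noradrenergic neurons are other sources of Th. Of 16 of their markers 7 passed the filter and 1, Slc6a3, the dopamine transporter, which some bulb neurons also use, reached 0.8 (0.863). Slc18a2 (0.523), Aldh1a1 (0.375), Dbh (0.252) and Ddc (-0.111) did not. Of the regulators in the list, Pitx3 (at most 6 counts in any mouse), Foxa1 (9), Foxa2 (2), En1 (7), Lmx1a (12) and Lmx1b (15) were at or near 0, as was the noradrenaline transporter Slc6a2 (6). En2 had 13 to 50 counts, and Nr4a2, which is also made in the cortex, had 534 to 1607, with correlations of 0.05 and 0.01 with the profile. Slc6a3 was highest in S3 at 4.42 CPM, where Th was 31.5 CPM. The list's summed level was 72.8 to 90.7 CPM in CETPtg vehicle, 69.4 to 73.1 in CETPtg evacetrapib, 68.9 to 79.0 in APPtg/CETPtg vehicle and 63.4 to 71.5 in APPtg/CETPtg evacetrapib, most of it from Aldh1a1 and Nr4a2, which other brain cells also express. T and NK cells, which use Tbx21 and Eomes, were represented by 1 tested gene of 8, the pan-leukocyte gene Ptprc (0.146), with at most 4 counts of Cd3e and 3 of Cd3g. Their summed level was 3.71 to 4.53 CPM in CETPtg vehicle, 3.07 to 3.61 in CETPtg evacetrapib, 3.06 to 3.75 in APPtg/CETPtg vehicle and 3.11 to 4.89 in APPtg/CETPtg evacetrapib.

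Lists of other regions and tissues were compared with the profile in the same way. None of the tested cortical (8), hippocampal (6), striatal (8), thalamic (6), choroid plexus (6), meningeal (6), cerebellar (5) or pituitary (1) markers reached 0.8. All 8 striatal markers had a negative r, from -0.58 to -0.29, and the cortical median was -0.21. In the hypothalamic list Trh, the precursor of thyrotropin-releasing hormone, did reach it (0.941), from 1.68 CPM in S5 to 19.3 CPM in S3, while Gal (0.672) and Oxt (0.176) did not.

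**Figure D5:**
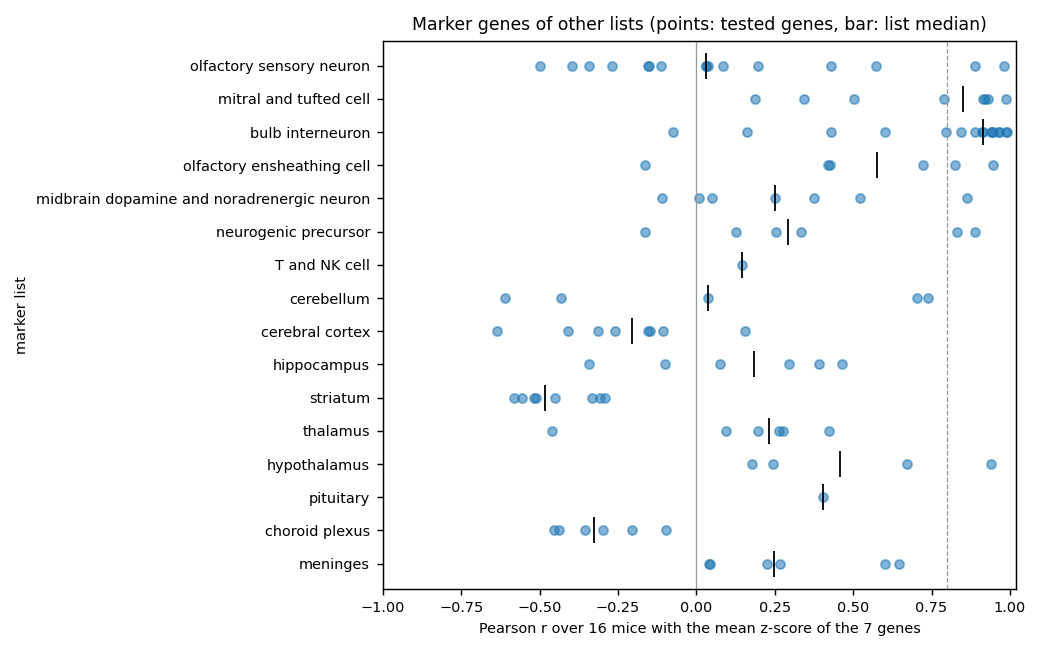
Pearson r over 16 mice between each marker gene's log2 CPM and the mean z-score of the 7 genes (horizontal axis), 1 point per tested gene, with the list median as a bar, the 7 genes themselves left out. The bulb interneuron (median 0.913) and mitral and tufted cell lists (0.851) lie to the right, and the striatal list lies wholly below 0.

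The 20 genes outside the 7 with the highest r were Sp8, Lgr5, Ush1g, Ms4a15, Shisa3, Gng4, Calb2, Cacng5, Adamts19, S100a5, Klhl30, Map3k1, Sp7, Sall1, Shisa8, Ptpro, Filip1l, Lgr6, Sall3 and Npr1, from 0.991 to 0.968. Lgr5 and Lgr6 encode R-spondin receptors, and Lgr5 ran from 3.72 CPM in S5 to 23.0 CPM in E. Ms4a15 had a 60.6-fold range, from 0.227 CPM in S5 to 13.7 CPM in E, close to that of Eomes, of which it was the nearest gene (0.994). Sall1 and Sall3, spalt-like transcription factors, varied less, 2.79-fold and 2.35-fold. Ptpro, a receptor-type tyrosine phosphatase, ran from 36.9 to 103 CPM. Taken singly, the nearest genes were S100a5 for Omp (0.974), Ush1g for Cdhr1 (0.990) and for Th (0.991), Sp8 for Doc2g (0.985), Lgr5 for Frmd7 (0.990) and Vipr2, a receptor of vasoactive intestinal peptide, for Tbx21 (0.983). The 5 lowest were Phyhip (-0.907), Olfml2b, Mfsd4a, Zfp239 and Mak (-0.866), whose ranges over the mice were narrow, 1.27-fold for Phyhip and at most 1.58-fold for the others.

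None of the genes in the 16 marker lists was called between evacetrapib and vehicle over both genotypes. Between the genotypes, where 17.7% of all genes were called, no gene of the mitral and tufted cell list was, and 3 of 16 bulb interneuron genes were lower in APPtg/CETPtg mice, Etv1 (-0.21), Dlx6 (-0.22) and Tpbg (-0.19). In the sensory neuron list Gng13 was higher (0.25) and Ncam2 (-0.29), Ric8b (-0.14) and Ebf1 (-0.34) were lower, and in the ensheathing cell list Matn2 was higher (0.21). Calls in the other lists included Aldh1a1 (-0.20), Sox11 (-0.31), Rorb (-0.43), Prox1 (-0.33), Fibcd1 (-0.21), Tcf7l2 (-0.60) and Plekhg1 (-0.23), all lower, and Fezf2 (0.32), higher (edgeR adjusted p of at most 0.0490 for each). These genes, named after their values were seen, had correlations with the profile of -0.64 to 0.60. With each mouse's profile as a further term, the fit called 2 genes besides the 7 between the treatments and 3484 between the genotypes, against 2 and 3299 without it. Each count was thus within a 1.5-fold range of its value without the term. Like counts can come from different genes, and whether the same genes were called is not given here.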

How the data were processed

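RNA was extracted from bulk brain, poly(A)-enriched and made into directional libraries. Per the labels and the study's methods, the authors trimmed reads with Trimmomatic 0.39, aligned them with STAR 2.7.8a to mm10 and counted reads per gene with HTSeq, which gave the deposited raw counts; the annotation and strand setting are not given in the sources used here. Gene positions came from GENCODE (GRCm38). Counts were scaled by TMM in edgeR 4.0.16 (R 4.3.3), and CPM and log2 CPM (prior count 2) were computed. Genes reaching 10 counts in 4 or more mice were fitted by glmQLFit and glmQLFTest, with Benjamini-Hochberg adjustment over all genes tested; SE and 95% intervals of differences were derived from the F statistic. The thresholds were an adjusted p of 0.05 and a change of 5%. Treatment and genotype were fitted as additive terms, and comparisons within groups used a mean for each of the 4 groups. The scripts were tested on simulated data. Mice of a group differed beyond sampling noise in all 24 pairs (chi-square per degree of freedom at least 4.75). The 7 genes, the lists and the tests were chosen with earlier results of these data known. Named genes were the 7, the 20 genes with the highest and the 5 with the lowest correlation with their mean z-score, the nearest genes of each, and list genes that a result turned on. Alternatives were DESeq2 1.42.0 (size factors or Wald test), other filters, other terms and each mouse left out.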

Additional observations from a re-analysis of the deposited data

Results flagged for a closer look

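In groups of 4 mice, the highest or lowest mouse was compared with the nearest other mouse by Dixon's criterion, for the 7 genes and for the summed odorant receptors. Of 32 groups checked, 5 held a mouse that stood apart. Chance flags about 1 in 20 groups, but the 7 genes were selected on their spread over these mice, so the count is a description and not a test. Mouse D stood above A, B and C in CETPtg evacetrapib for Cdhr1 at 84.9 CPM, Eomes at 15.0 CPM, Frmd7 at 15.0 CPM and Th at 33.6 CPM. Mouse S1 stood below S2, S3 and S4 in CETPtg vehicle for Cdhr1 at 40.2 CPM. The 4 values of D come from the same library and from genes that move together, so they are a single pattern.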

How the results depend on the processing

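The 49 fitted differences of the 7 genes were recomputed to give 1043 values. Of these, 4 were called, all between genotypes under vehicle without S6 (8.75% of all genes were called in that fit). S6 was the highest mouse of its group for every gene, so these calls are a description only. Of the values, 84 changed sign, all over both genotypes or both treatments, where the differences lay near 0. Of the sign changes, 72 came from leaving out a mouse. The treatment differences then ranged over -0.0332 to 0.696 for Omp, -0.18 to 0.30 for Cdhr1, -0.10 to 0.40 for Doc2g, -0.24 to 0.40 for Eomes, -0.29 to 0.33 for Frmd7, -0.0526 to 0.534 for Tbx21 and -0.24 to 0.23 for Th. The genotype differences ranged over -0.28 to 0.45 for Omp, -0.430 to 0.0538 for Cdhr1, -0.33 to 0.19 for Doc2g, -0.52 to 0.15 for Eomes, -0.534 to 0.0757 for Frmd7, -0.44 to 0.15 for Tbx21 and -0.30 to 0.19 for Th. Without a genotype term the treatment difference was -0.0129 for Cdhr1 and -0.0177 for Eomes. Without mice F and S5, chosen after seeing the data, it was -0.0791 for Cdhr1 and -0.0949 for Eomes, and the genotype difference was 0.17 for Cdhr1, 0.30 for Doc2g, 0.28 for Eomes, 0.18 for Frmd7, 0.23 for Tbx21 and 0.28 for Th. A replicate block from numbers in the table's header, also added later, gave 0.0471 for Frmd7 (treatment) and 0.0187 for Th (genotype). These numbers do not pair the mice, since deviations of the 24 same-numbered pairs correlated between -0.203 and 0.173.

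The counts of genes called moved more than the 7 genes did, and the cause was not tested. Without a filter on low counts they were 35 (treatment over both genotypes, 2 with the filter), 9 (within CETPtg, 0), 88 (within APPtg/CETPtg, 8) and 29 (difference of the effects, 0). The Wald test of DESeq2 gave 59, 73 and 2 for treatment over both genotypes, within APPtg/CETPtg and for the difference of the effects, and 1135 between genotypes under evacetrapib (556 by edgeR). Without a genotype term 1 gene was called for treatment. Without F and S5 the counts were 0 for treatment, 0 within APPtg/CETPtg, 2175 for genotype (3299 with them) and 178 for genotype under evacetrapib. Leaving out a mouse gave 0 to 8 genes for treatment (8 without S8), 0 to 14 within APPtg/CETPtg (0 without G, 14 without S8), 909 to 1998 between genotypes under vehicle (1934 with all mice, 909 without S3, 1007 without S1 and 1215 without S8), 91 to 858 under evacetrapib (91 without A, 858 without B) and 0 to 1 for the difference of the effects (1 without S2). The receptor sum differed by -0.120 to 0.570 CPM for treatment and -0.417 to 0.273 CPM for genotype when a mouse was left out, and by 0.117 CPM for genotype without TMM. The count of the 7 genes whose groups did not overlap ran from 0 to 5, with 5 without D and 5 without S6. Of the 20 genes most like the 7, 11 were shared with a ranking by Spearman rho and 12 with one on CPM.

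Depth limits Eomes and Tbx21 in S5, at 6 and 2 counts. For Cdhr1, with 249 counts in its lowest mouse, the counting interval of the range over mice was narrow (7.48 to 9.77).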
